A study of Mus musculus with 10 samples.

Results

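Circulating neutrophils of 4T1 tumor-bearing mice were compared with those of control mice, using the 4 arrays of freshly frozen cells out of 10 arrays in the study. Probes were taken called detected (p-value below 0.05) on 2 or more of these 4, which held for 14552 of 45281 probes. Of the 14552 probes, 12192 name a single gene, and 8019 genes were tested, each read from 1 probe. Both groups are female nude NCR mice, an athymic strain with few T cells. Control mice carried no tumor (2 arrays), and the other mice carried 4T1, a transplantable mouse mammary carcinoma line (2 arrays). Neither group received another treatment, and RNA was extracted with Trizol and labelled with Cy3 for Illumina bead arrays. The age of the mice, the size of the tumors and whether an array holds cells of 1 animal or of a pool are not stated. A p-value therefore measures only the spread between these arrays, which may be technical, and 2 arrays a group limit the precision.

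Neutrophils are short-lived granulocytes that leave the marrow with most of their granule proteins already made. They carry few mitochondria, draw their energy mainly from glycolysis and stored glycogen, and lose much of their ribosome supply as they mature. In mice with growing tumors, myeloid growth factors such as G-CSF raise neutrophil output and can release less mature cells into the blood. The groups below follow the path from making proteins, through energy and storage, to degradation, gene regulation, the cell surface and granule release.

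Markers of neutrophils were detected on all 4 arrays. Of 12 fixed neutrophil markers 11 were tested, and their summed normalized level was 84430 and 77980 on the control arrays against 87330 and 76770 on the tumor-bearing arrays. Of these markers 3 rose and none fell: Il1r2 by 0.69 ± 0.18, Ltf by 0.70 ± 0.19 and Mmp8 by 0.72 ± 0.20 on the log2 scale. None of them passed without tumor replicate 1, and 1 did without tumor replicate 2. Of 4 tested markers of precursors and cycling cells, Kit and Prtn3 rose, while Mpo and Ctsg did not pass. The lowest change among the 4 was -0.35. Kit was detected on neither control array, so it entered the test through the tumor-bearing arrays alone. It was at least 9.25-fold higher in tumor-bearing mice, and Prtn3 rose by 1.36 ± 0.23. The summed level of the 4 went from 107.3 and 124.2 to 408.9 and 407.4, with the control sums including the undetected Kit signal. The defining cycling genes Top2a and Cdk1, and Elane and Fcnb of early granulocytes, were detected on none of the fresh arrays. For lymphocytes, monocytes, dendritic cells, other granulocytes, red cells and platelets, 36 markers were tested. Of these 26 fell and none rose, beside 15.2% of all genes falling, and the median change of the markers was -1.30. Their summed level was 33280 and 30510 on the control arrays and 21800 and 17510 on the tumor-bearing arrays. The B cell markers summed to 3003 and 2522 in controls against 461.7 and 400.9, the T cell markers to 1576 and 1651 against 544 and 479.7, and the dendritic cell and MHC class II markers to 6779 and 4966 against 1322 and 1115. The NK cell markers summed to 1137 and 1020 in controls against 1080 and 713.9. Of the 3 tested NK cell markers 2 fell, with a median change of -1.77. The monocyte and macrophage markers summed to 2796 and 2857 against 2528 and 2663. Cd28, Ncr1, Eomes, Ccr2, Flt3, Siglecf and Epx were detected on no fresh array. Cd3g, Il7r, Bcl11b, Ms4a1 and Pax5 were detected on no more than 2, and such markers can enter the test through 1 group alone. With detection required on all 4 arrays, 2 of 2 T cell, 4 of 4 B cell and 1 of 2 NK cell markers fell. Under that filter 3 of 5 dendritic cell and MHC class II markers fell, and 0 of 2 of eosinophils, basophils and mast cells. In RNA of a whole sample, fewer cells of a type and less RNA per cell cannot be told apart. All errors are standard errors of the fit with 2 arrays a group, and levels are log2 normalized signals.

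Between 13622 and 14694 probes were detected per fresh array (30.1 to 32.5%), with median raw signals from 101.1 to 106.2 and 43 to 44 beads a probe. Detected probes correlated at 0.986 between the control arrays, at 0.989 between the tumor-bearing arrays and at 0.947 to 0.954 between groups, with points that share probe sequence and brightness.

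In tumor-bearing mice 868 genes rose and 1218 fell in limma's moderated test at a Benjamini-Hochberg adjusted p below 0.05. Together this is 26% of the genes tested, with 10.8% rising and 15.2% falling. Most changes were modest: 581 rises and 773 falls were smaller than 2-fold, or 64.9% of the called genes, and the median size of a called change was 0.83 on the log2 scale. The smallest was 0.53, against a median standard error of 0.19. The median change of all tested genes was -0.04. Of the risers 97 were detected on no control array, and of the fallers 225 on no tumor-bearing array. These genes entered the test through the other group alone. With detection required on all 4 arrays, 859 rose and 1023 fell of 6346 genes tested. In 4 equal bins of genes from the lowest to the highest level, 22.2%, 33.2%, 28.5% and 20.1% were called. Without tumor replicate 1 the count of called genes was 1351, and without tumor replicate 2 it was 1175. Among the probes that name no gene 268 rose and 356 fell of 2355.

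**Figure D1:**
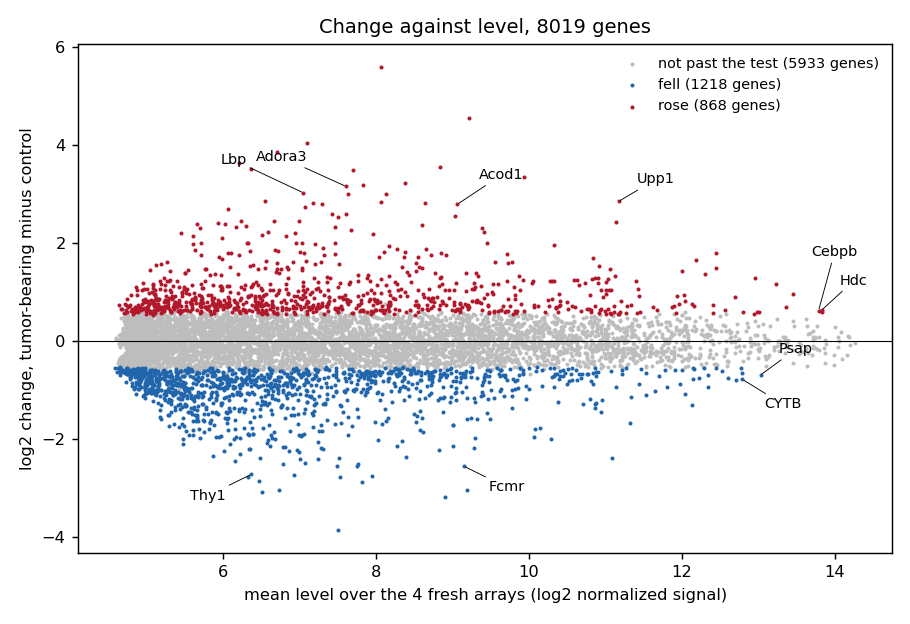
Log2 change (tumor-bearing minus control, vertical axis) against the mean log2 normalized signal over the 4 fresh arrays (horizontal axis), 1 point for each of 8019 genes, with 868 risers in red and 1218 fallers in blue. Called genes lie at every level, and Hdc and Psap, among the brightest, changed by less than 1 on the log2 scale.

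Genes read from the brightest probes changed by small amounts that were still past the test. Among the 8 brightest risers were Hdc, the enzyme that makes histamine, which rose by 0.63 ± 0.19 (adjusted p = 0.027), and Cebpb, a transcription factor of emergency granulocyte production. Cebpb had levels of 13.46 and 13.50 in controls against 14.28 and 13.92, a rise of 0.62 ± 0.20 (adjusted p = 0.036). Chil1, a chitinase-like granule protein, rose by 0.96 ± 0.22, from 13.18 and 12.76 to 13.70 and 14.16. Lrg1 (0.59 ± 0.19), Sema4a (0.68 ± 0.21), Ifitm3 (0.58 ± 0.19), the cytokine signalling inhibitor Socs3 (0.59 ± 0.18) and Stfa1 (1.16 ± 0.18) complete the 8. The groups did not overlap for these genes, as was the case for 63.5% of all tested genes.

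The 8 brightest fallers included Psap, the precursor of the saposins that help degrade sphingolipids in lysosomes, with levels of 13.21 and 13.55 in controls against 12.70 and 12.66. Psap fell by 0.69 ± 0.20 (adjusted p = 0.021), and its other detected probe changed by -0.83. Lyz2, which encodes lysozyme, fell by 0.79 ± 0.21, and its other probes changed by -0.66 and -1.06. CYTB, a mitochondrially encoded subunit of complex III, fell by 0.78 ± 0.18, and the ribosomal protein genes Rplp1, Rps12 and Rpl38 fell too, with changes of -0.76, -0.55 and -0.62. Cyp4f18, which inactivates leukotriene B4 in mouse neutrophils, fell by 0.56 ± 0.18, with another probe at -0.19. Tsc22d3, a glucocorticoid-induced gene, fell by 0.66 ± 0.20 on its brightest probe, but its other probes changed by 0.39 and -0.23.

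Below the 10 largest rises, the next 10 ranged from 3.18 to 2.82 on the log2 scale. Scimp, an adaptor of immune receptor signalling, led them with levels of 6.36 and 6.11 in controls against 9.62 and 9.23, a rise of 3.18 ± 0.20 (adjusted p = 7.7e-07), and its other probe changed by 3.57. Adora3, an adenosine receptor that guides neutrophil migration, went from 5.95 and 6.10 to 9.16 and 9.19. All tumor-bearing values of both genes lay about 3 log2 units above all control values. Lbp, which hands bacterial lipopolysaccharide to its receptor, rose by 3.02 ± 0.19, and Cbr3, a carbonyl reductase, by 2.996 ± 0.22. Upp1, which releases uracil and a ribose sugar from uridine, rose by 2.84 ± 0.19, from 9.71 and 9.79 to 12.49 and 12.70, and its other probes changed by 3.01 and 3.55. Tgm1, a protein-crosslinking transglutaminase (2.83 ± 0.22), Ano2, a calcium-activated chloride channel (2.86 ± 0.19), Prnp, the prion protein (2.82 ± 0.20), and 0610040J01Rik (2.82 ± 0.20) were also among these risers. Egr3 rose by 3.003 ± 0.22 on 1 probe, while its other probe changed by 0.37.

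The 10 falls that followed the 10 largest ran from -2.74 to -2.41. Most are genes of lymphocytes or of antigen presentation: Thy1 of T cells, Fcmr, Fcrla, Cd22, Mzb1, Vpreb3 and Blk of B lineage cells, and H2-DMb2 and H2-Ab1 of MHC class II. Fcmr, the receptor for IgM, had levels of 10.58 and 10.27 in controls against 7.86 and 7.88, and fell by 2.55 ± 0.19. Ralgps2 fell by 2.74 ± 0.22, and its other probes changed by -1.04, -1.02 and -1.45. Cd22, Fcrla and Blk are themselves in the B cell marker sum given above, and H2-Ab1 is in the dendritic cell and MHC class II sum. Those sums therefore had to move with these falls in part. The part of lymphocytes in the falls was not tested.

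Genes for making ribosomes were lower in tumor-bearing mice. Of 16 tested nucleolar factors that assemble ribosomes 10 fell and none rose, beside 15.2% of all genes falling. The median change was -0.67 beside -0.04 for all genes. With no background correction 7 fell and the median was -0.24, and with a normexp offset of 50 it was -0.34. The group is dim, with median levels of 5.73 and 6.26 in controls against 5.40 and 5.35. Nop58, a core protein of the particles that methylate ribosomal RNA, had levels of 6.55 and 6.45 in controls against 4.89 and 5.11, and fell by 1.496 ± 0.19 (adjusted p = 0.00011). Mybbp1a fell by 1.09 ± 0.22, from 6.50 and 6.94 to 5.82 and 5.44, and Ddx21, an RNA helicase of the nucleolus, changed by -1.08 ± 0.23. Polr1a, the largest subunit of RNA polymerase I, had levels of 9.83 and 9.86 against 9.21 and 8.66, and fell by 0.90 ± 0.21, and its other probes changed by -0.68, -0.45 and -0.20. Npm1, the abundant nucleolar chaperone nucleophosmin, fell by 0.75 ± 0.21, while Ncl, encoding nucleolin, changed by -0.59 ± 0.21 without passing. Nop14, Wdr43 and Rrp9 were detected on neither tumor-bearing array, and were at least 1.28-fold, 1.17-fold and 1.14-fold lower there. These genes entered the test through the control arrays alone. With detection required on all 4 arrays, 10 nucleolar factors were tested, of which 6 fell and none rose. Without tumor replicate 1 only 6 of the 16 passed, and without tumor replicate 2 only 4.

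The ribosomal proteins themselves showed the same direction. Of 51 tested genes 27 fell and none rose, 19 of 31 in the large subunit and 8 of 20 in the small subunit, with a median of -0.55, beside 15.2% of all genes falling. Rpl12 went from 10.96 and 11.12 to 9.09 on both tumor-bearing arrays, and fell by 1.95 ± 0.19 (adjusted p = 1.1e-05). Rpl10a went from 11.15 and 10.92 to 9.26 and 9.25, and fell by 1.78 ± 0.19. In the small subunit Rps4x fell by 1.38 ± 0.19, from 11.60 and 11.51 to 10.25 and 10.11, and Rps19 changed by -1.27 ± 0.19. The remaining fallers ranged from -0.55 to -1.45. Ribosomal protein genes have many near-identical pseudogenes, and Rpl36a and Rpl36al are close copies of each other, so single probes of this family are uncertain. Rps24 fell by 0.94 ± 0.19 on its brightest probe and changed by 0.35 on another. The count of fallers was 17 without tumor replicate 1, 11 without tumor replicate 2 and 13 when arrays were scaled to a common median, with a list median of -0.30 under that scaling. The lymphocyte marker sums given above fell on the same arrays, and their part in the fall of both ribosome groups was not tested.

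**Figure D2:**
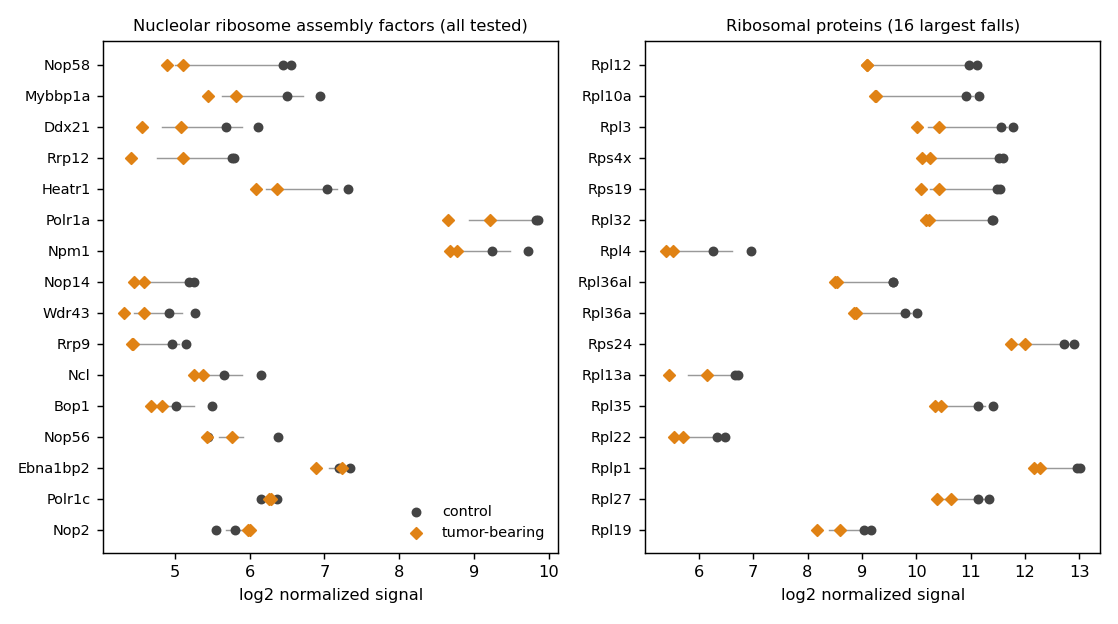
Log2 normalized signal (horizontal axis) of all 16 tested nucleolar assembly factors (left) and of the 16 ribosomal protein genes with the largest falls (right), with control arrays as grey circles, tumor-bearing arrays as orange diamonds and a line joining the group means. Rpl12, Rpl10a and Nop58 show the widest gaps between groups, while Polr1c and Nop2 do not lie lower in tumor-bearing mice.

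Of 30 initiation factors of translation 4 fell and 1 rose, or 16.7% called beside 26% of all genes, with a median of 0.00. Without tumor replicate 2 only 1 fell, and without control replicate 1 2 did. The fallers were Eif3i, Eif3b and Eif3d, subunits of the scaffold that brings the small subunit to messenger RNA, and Eif2a. Eif3i went from 9.85 and 9.70 to 8.66 and 8.57, and fell by 1.16 ± 0.19, and another of its probes changed by -0.80. Eif5a rose by 0.84 ± 0.20, with other probes down to -0.19. Of 16 cytosolic aminoacyl tRNA synthetases Farsb and Sars fell, with changes of -1.05 and -1.04, and Hars rose by 1.10 ± 0.19. This is 18.8% called beside 26% of all genes. Over the alternatives 1 to 3 synthetases rose and 1 to 3 fell.

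Some nuclear-encoded mitochondrial genes fell, though these groups were called less often than all genes. Of 64 tested mitochondrial ribosome subunits 13 fell and 1 rose, or 21.9% called beside 26% of all genes, with a median of -0.20. Of all genes 15.2% fell. Mrpl23 had levels of 7.29 and 7.24 in controls against 5.66 and 5.09, and fell by 1.90 ± 0.22 (adjusted p = 4.4e-05), whereas Mrps28 rose by 1.26 ± 0.19, from 7.55 and 7.30 to 8.69 on both tumor-bearing arrays. Of 66 nuclear-encoded respiratory chain subunits 11 fell and 2 rose, or 19.7% called beside 26% of all genes. Of these fallers 7 were among 32 subunits of complex I, the entry point of electrons from NADH. Ndufb3 fell by 1.08 ± 0.20 and Atp5g2, part of the ATP synthase ring, changed by -1.30 ± 0.21. The median of the respiratory chain was -0.16 and turned to 0.03 when arrays were scaled to a common median. Counts of falling respiratory chain genes reached 18 with no background correction. Without either tumor replicate in turn, 6 respiratory chain genes and 7 mitochondrial ribosome genes fell.

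Genes encoded on mitochondrial DNA were read by 6 probes, and 3 of them fell, beside 15.2% of all genes falling. ND1, of complex I, went from 11.81 and 11.31 to 10.39 and 10.30, and fell by 1.21 ± 0.21 (adjusted p = 0.0011). CYTB went from 13.22 and 13.15 to 12.42 and 12.38, and ND4 fell by 0.76 ± 0.19. ND5 (0.39 ± 0.19), COX2 (-0.21 ± 0.18) and ATP6 (-0.68 ± 0.26) did not pass. Under scaling to a common median only 1 of the 6 passed. This list was drawn up after values had been seen. In the citrate cycle 4 of 15 enzymes fell and 1 rose, or 33.3% called beside 26% of all genes. Fh1, fumarase, led the fallers, from 6.01 and 6.25 to 5.02 and 5.04, a fall of 1.10 ± 0.19. Idh3b fell by 0.93 ± 0.19, while Dld, detected on neither control array, rose and was at least 1.49-fold higher. Without tumor replicate 1, and also without tumor replicate 2, 2 of the enzymes fell.

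Over 17 tested genes of glycogen and the pentose phosphate pathway 4 rose and 2 fell, or 35.3% called beside 26% of all genes. Their median change was -0.32, and the risers were all genes of glycogen synthesis. Of 6 tested genes of glycogen synthesis 4 rose and none fell, beside 10.8% of all genes rising. Gyg, encoding glycogenin, which primes each glycogen particle, went from 6.09 and 6.85 to 8.29 and 8.63, a rise of 1.99 ± 0.25 (adjusted p = 8.9e-05), and its other probe changed by 2.14. Pgm1, which interconverts glucose 1-phosphate and glucose 6-phosphate, went from 7.86 and 7.75 to 9.36 and 9.26, a rise of 1.51 ± 0.19, with another probe at 1.65. Both tumor-bearing arrays stood more than 1 log2 unit above both controls for each gene. Ppp1r3b and Ppp1r3d, which target protein phosphatase 1 to glycogen, rose by 0.75 ± 0.19 and 0.57 ± 0.19. The branching enzyme Gbe1 (-0.49 ± 0.26) and Ugp2 (-0.38 ± 0.20) did not pass. Gys1, encoding glycogen synthase, is on the array but did not meet the detection filter and was not tested. Of 5 genes of glycogen breakdown Phka2 and the lysosomal glucosidase Gaa fell, with changes of -0.78 and -0.62, and another probe of Phka2 changed by 0.00. Pygl, the liver-type glycogen phosphorylase that neutrophils also use, changed by -0.32 ± 0.18. In the pentose phosphate pathway Tkt changed by -0.34 ± 0.22 and Pgd by -0.21 ± 0.21. Without tumor replicate 2 only 2 of the glycogen synthesis genes passed, and no glycogen breakdown gene did.

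Lipid genes moved both ways. Of 32 genes of fatty acid handling 5 rose and 5 fell, or 31.2% called beside 26% of all genes. Their median of 0.06 turned negative in 4 alternatives. Dgat1 and Dgat2, the enzymes of the last step of triglyceride synthesis, both rose. Dgat2 went from 9.24 and 9.38 to 10.37 and 10.72, a rise of 1.23 ± 0.20 (adjusted p = 0.00067), and Dgat1 from 8.53 and 8.33 to 9.66 and 9.27, a rise of 1.03 ± 0.20. Acsl3, which activates fatty acids at lipid droplets, rose by 1.21 ± 0.21. The mitochondrial oxidation genes Echs1 and Etfb fell, with changes of -1.08 ± 0.21 and -0.68 ± 0.21, whereas Eci2 rose by 0.91 ± 0.22. Cholesterol synthesis and uptake had 13.3% of its tested genes called, beside 26% of all genes. Among 15 genes of cholesterol synthesis and uptake, Insig1 (0.75 ± 0.20) and Sc5d (0.63 ± 0.21) rose, and over the alternatives 0 to 5 rose, with none without tumor replicate 1 and 5 without control replicate 2. Falls in fatty acid handling numbered 2 without tumor replicate 1 and 1 without tumor replicate 2.

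Lysosome genes moved in both directions. Of 41 tested genes 7 rose and 9 fell, or 39% called beside 26% of all genes. Among 12 cathepsins, the lysosomal proteases, 4 rose and 2 fell. Ctsb went from 11.33 and 11.26 to 12.61 and 12.82, a rise of 1.42 ± 0.19 (adjusted p = 0.00015). Ctsk, best known as the collagen-degrading protease of osteoclasts, was detected on no control array and was at least 2.24-fold higher in tumor-bearing mice, with a fitted rise of 1.57 ± 0.19. Ctsl rose by 0.99 ± 0.20. Ctsa rose by 1.20 ± 0.22 on its brightest probe, but its other probes changed by -1.86, 0.20, 0.69 and 0.40. Ctsw, a protease of cytotoxic lymphocytes, fell and was at least 2.79-fold lower, since it was detected on neither tumor-bearing array. The T cell marker sum was lower on both tumor-bearing arrays. The NK cell sum of tumor replicate 1, 1080, lay between the control sums of 1137 and 1020, and that of tumor replicate 2 was 713.9. Of the 3 tested NK cell markers 2 fell, with a median change of -1.77. The part of these cells was not tested.

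Of 16 hydrolases and membrane proteins of the lysosome 6 fell and none rose, beside 15.2% of all genes falling. Hexa, which degrades gangliosides, had levels of 10.33 and 10.34 in controls against 9.46 and 9.29, and fell by 0.96 ± 0.19 (adjusted p = 0.0025). Gusb, Glb1, Gaa and Lipa fell, with changes of -0.72, -0.64, -0.62 and -0.59, and Psap is described above. In the proton pump that acidifies the lysosome, Atp6v0a1 rose by 1.25 ± 0.18, from 10.42 and 10.39 to 11.63 and 11.68, with another probe at 1.89, and Atp6v1d fell by 1.13 ± 0.21. Without tumor replicate 1, and also without tumor replicate 2, the falls across the lysosome numbered 4, and scaling to a common median gave 13 rises and 5 falls, while no background correction gave 13 and 9.

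**Figure D3:**
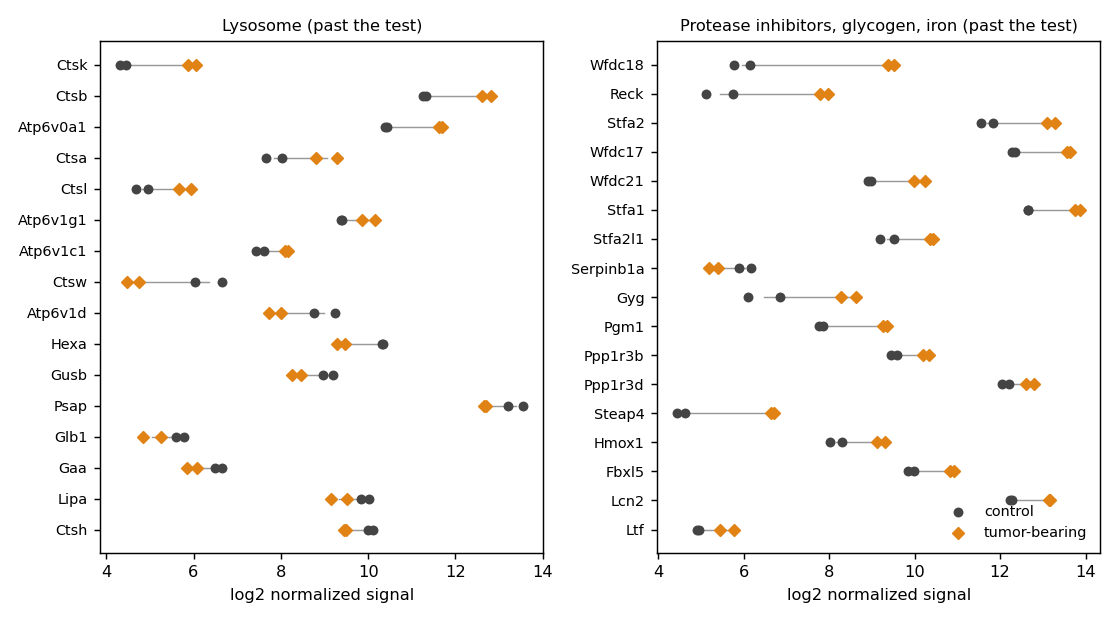
Log2 normalized signal (horizontal axis) on each control array (grey circles) and tumor-bearing array (orange diamonds), with lines joining group means, for the lysosome genes past the test (left) and for the called genes of protease inhibition, glycogen synthesis and iron handling (right). Cathepsins K and B rose while Hexa and Psap fell, and Wfdc18, Reck and Steap4 show the widest rises on the right.

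Lysosome genes are known targets of the transcription factor Tfeb, which binds sites built around CACGTG. These 6 letters, which read the same on both strands, were searched in RefSeq promoter windows (GRCm38.p6) from 250 bases before to 50 bases after each start. A gene counted as holding them if any of its windows did. They occurred for 8.09% of all genes with a window and for 12.2% of the 6557 tested genes with a window. Of 30 tested lysosome genes with a window 10 held them (33.3%). Of the lysosome risers with a window 2 of 4 held the letters, and of the fallers 2 of 7. Stretches of windows from both directions are shown here, with the match in capitals and the gene's own strand printed. Ctsa, which rose, also held the letters and is not shown.
Ctsl, which rose (chr13:64370711-64370770, minus strand): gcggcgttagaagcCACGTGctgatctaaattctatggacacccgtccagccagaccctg
Glb1, which fell (chr9:114400990-114401075, plus strand): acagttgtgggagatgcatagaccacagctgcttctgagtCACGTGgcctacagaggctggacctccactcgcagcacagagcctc
Gaa, which fell (chr11:119267783-119267868, plus strand): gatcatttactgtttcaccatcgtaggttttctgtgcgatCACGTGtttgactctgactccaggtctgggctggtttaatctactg
A match describes the letters of the window and is no evidence of binding. Of the 698 risers with a window 84 held the letters, and of the 980 fallers with a window 128. Tfeb itself changed by 0.35 ± 0.19 and the related Tfe3 by 0.49 ± 0.18, and neither passed.

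In autophagy, which delivers cell contents to the lysosome, 4 of 27 genes rose and none fell, close to the 10.8% of all genes. Atg9a, a membrane protein of the growing autophagosome, went from 5.94 and 6.11 to 7.31 and 7.07, a rise of 1.16 ± 0.19 (adjusted p = 0.00081), and its other probe changed by 1.38. Atg13, Wipi1 and Atg4d rose by 0.89, 0.82 and 0.73. Counts ranged from 2 to 8 risers and from 0 to 3 fallers over the alternatives. Of 30 proteasome subunits 3 fell and 1 rose, or 13.3% called beside 26% of all genes. Fallers numbered 1 to 8 over the alternatives, with 1 without tumor replicate 2 and 8 with no background correction. Psmb10, an immunoproteasome subunit, fell by 1.05 ± 0.21, and Psmb1 rose by 0.93 ± 0.19.

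Several protease inhibitor genes rose. Of 18 tested 7 rose and 1 fell, or 44.4% called beside 26% of all genes, although the median over the list was 0.03. The stefins, small inhibitors of cysteine cathepsins that mouse neutrophils make in quantity, moved together. Stfa1 went from 12.66 and 12.64 to 13.88 and 13.74, a rise of 1.16 ± 0.18 (adjusted p = 0.00065), Stfa2 rose by 1.48 ± 0.19 and Stfa2l1 by 1.05 ± 0.19. Stefin genes are near-identical copies in the mouse genome, so their probes may read each other's transcripts. Of the whey acidic protein family, which holds inhibitors of serine proteases, Wfdc18 rose by 3.48 ± 0.20, from 5.77 and 6.15 to 9.51 and 9.37. Wfdc17 rose by 1.29 ± 0.18 and Wfdc21 by 1.16 ± 0.19, and Slpi, the leukocyte elastase inhibitor, changed by 0.37 ± 0.22. Reck, a membrane inhibitor of matrix metalloproteinases, went from 5.75 and 5.12 to 7.97 and 7.80, a rise of 2.45 ± 0.22 (adjusted p = 9e-06). Serpinb1a, which inhibits neutrophil elastase, fell by 0.74 ± 0.19. The count of risers was 7 under every alternative run.

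Iron handling had 5 risers and no faller among 16 genes, beside 10.8% of all genes rising. The alternatives gave 4 to 6 risers and 0 to 3 fallers. Steap4, a metalloreductase induced in inflammation, was detected on no control array and was at least 3.66-fold higher in tumor-bearing mice, at 6.64 and 6.71 against 4.63 and 4.45 in controls. Hmox1, heme oxygenase, rose by 1.05 ± 0.20, from 8.01 and 8.31 to 9.13 and 9.30. Lcn2, which binds bacterial siderophores, rose by 0.90 ± 0.18, and Fbxl5, an iron sensor, by 0.95 ± 0.19 with other probes from 0.00 to 0.36. The transferrin receptor Tfrc changed by -0.57 ± 0.20, the exporter Slc40a1 by -0.50 ± 0.19 and the ferritin chains Fth1 and Ftl1 by -0.12 ± 0.19 and 0.12 ± 0.18, none past the test.

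**Figure D4:**
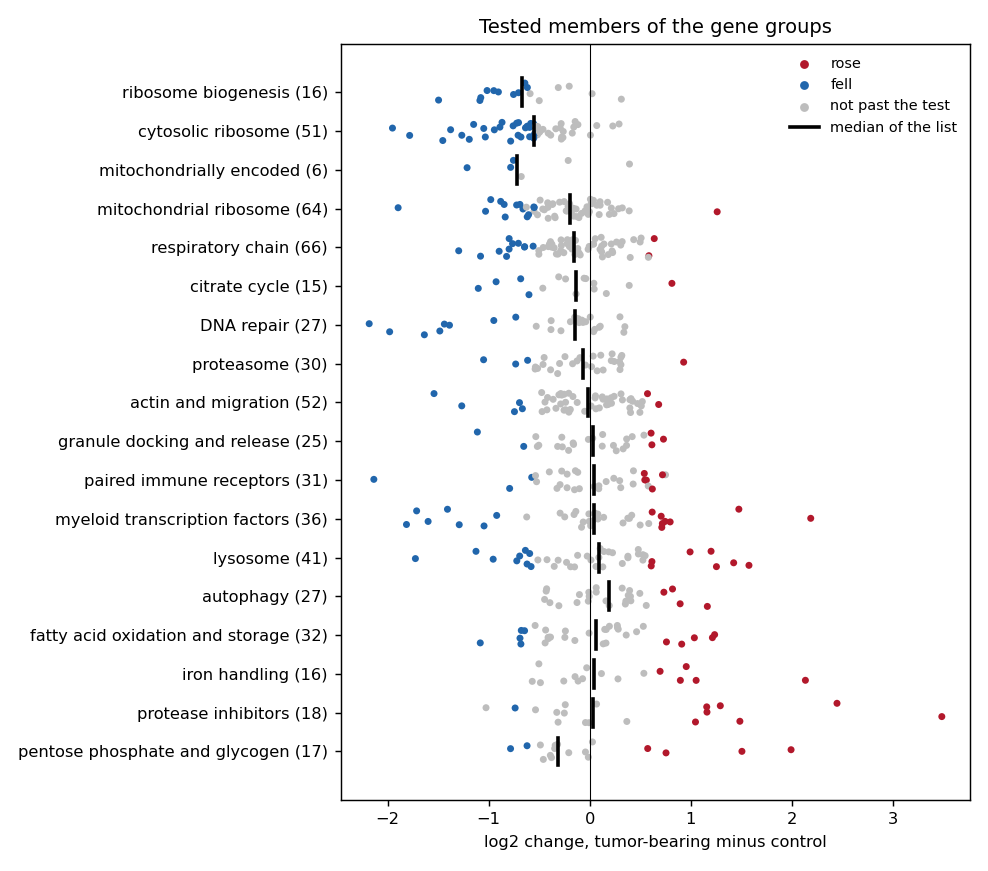
Log2 change, tumor-bearing minus control (horizontal axis), of each tested member of 18 gene groups (rows, with the number tested), in red for genes that rose, blue for genes that fell and grey for the rest, with black bars at the group medians. Both ribosome groups and the mitochondrially encoded genes have medians below -0.5, while lysosome, iron and lipid genes spread to both sides of 0.

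Transcription factors of myeloid cells changed in both directions. Among 16 factors of the granulocyte lineage 2 rose and 5 fell. Of all 36 tested factors 8 rose and 7 fell, or 41.7% called beside 26% of all genes. Risers numbered 4 without control replicate 1 or tumor replicate 1 and 3 without tumor replicate 2. Hif1a, the oxygen-regulated factor that drives glycolysis genes in myeloid cells, went from 6.995 and 6.72 to 8.89 and 9.20, a rise of 2.19 ± 0.20 (adjusted p = 9e-06). Max, the partner of Myc, rose by 1.47 ± 0.21, from 5.43 and 5.99 to 7.14 and 7.23, and Runx1 by 0.79 ± 0.24. Of 9 Kruppel-like factors Klf9, Klf7, Klf13 and Klf3 rose, by 0.71 to 0.75, and none fell. The fallers included Lyl1 and Lmo2, which act together in blood progenitors. Lyl1 went from 9.35 and 9.62 to 7.71 and 7.63, and Lmo2 from 9.98 and 9.75 to 8.11 and 8.19, changes of -1.81 ± 0.19 and -1.71 ± 0.19. Cebpe, the factor of secondary granule genes, had levels of 7.70 and 7.99 in controls against 6.601 and 6.50. It fell by 1.29 ± 0.19 (adjusted p = 0.00038), with other probes at -1.09, -1.36 and -0.73. Irf8, which favours monocytes over granulocytes, fell by 1.41 ± 0.20. Ets1 (-1.60 ± 0.19) and Foxo1 (-0.92 ± 0.22) fell as well. Irf8, Ets1 and Foxo1 are also expressed in lymphocytes, whose markers fell, and the part of lymphocytes was not tested. Cebpd fell by 1.05 ± 0.21 on 1 probe and changed by 0.74 on another. Spi1, encoding PU.1 (0.41 ± 0.20), and Gfi1 (-0.07 ± 0.25) did not pass.

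Among 47 chromatin modifiers 4 rose and 7 fell, or 23.4% beside 26% of all genes, and without tumor replicate 2 1 rose and 4 fell. Hdac6, a cytoplasmic deacetylase of tubulin, was detected on no control array, was at least 4.13-fold higher and had a fitted rise of 2.31 ± 0.19 (adjusted p = 4.4e-06). Dnmt1, the maintenance DNA methyltransferase, fell by 0.92 ± 0.19, and Kdm1b by the same size. DNA repair genes, a list drawn up after values had been seen, had 8 fallers and no riser of 27 tested, or 29.6% called, beside 15.2% of all genes falling. Rpa1, which coats single-stranded DNA, went from 8.57 and 8.16 to 6.20 and 6.16, and fell by 2.18 ± 0.20, and Parp1, a sensor of strand breaks, from 7.57 and 7.68 to 5.53 and 5.75, and fell by 1.98 ± 0.19. Atm, Pold1, Xrcc6, Parp2, Xrcc1 and Rpa3 also fell. The number of fallers lay between 6 and 9 over the alternatives run. Lymphocyte markers fell on the same arrays, and their part in these falls was not tested. Of 42 splicing factors 3 rose and 6 fell (21.4% beside 26% of all genes), and without tumor replicate 2 1 rose and 1 fell. They included Hnrnpa1, which fell by 1.09 ± 0.18, from 6.63 and 6.71 to 5.53 and 5.63, and Snrpd3, which rose by 0.88 ± 0.19.

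Of 12 clock genes 16.7% were called, and of 17 targets of p53 29.4%, beside 26% of all genes. Among the p53 targets the cell cycle inhibitor Cdkn1a rose by 1.31 ± 0.18, from 6.76 and 6.63 to 7.97 and 8.04. Its other probes changed by 1.29 and 1.02. Plk3 rose too, while Ccng1, Bbc3 and Sesn1 fell, and without tumor replicate 2 only 1 of the list fell. Of 12 clock genes Bhlhe40 rose by 0.58 ± 0.18, and Rora fell and was detected on neither tumor-bearing array, but no clock gene passed without tumor replicate 2.

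On the cell surface, glycan enzymes that build selectin ligands had 4 risers and 6 fallers of 21, or 47.6% called beside 26% of all genes. St6gal1, which adds sialic acid in the linkage read by Cd22, went from 9.40 and 9.10 to 6.27 and 6.50, and fell by 2.87 ± 0.20 (adjusted p = 1.1e-06). It is abundant in B cells, whose markers fell on the same arrays, and the part of B cells in this fall was not tested. Fut4, a fucosyltransferase of myeloid cells, fell by 2.05 ± 0.19, from 9.23 and 9.496 to 7.22 and 7.41. In the other direction Cmas, which activates sialic acid, rose by 1.32 ± 0.20, and St3gal4, which caps selectin ligands on neutrophils, by 1.09 ± 0.19, from 6.82 and 6.58 to 7.81 and 7.76. Of 31 paired immune receptors and their signalling partners 5 rose and 3 fell, or 25.8% beside 26% of all genes. Without tumor replicate 2 none of them rose and 1 fell, and 2 rose without control replicate 1 or tumor replicate 1. Siglecg, an inhibitory receptor of B cells, fell by 2.14 ± 0.21 (another probe at -0.82) and Cd300a changed by -0.79 ± 0.18, while Lilrb4a rose by 0.72 ± 0.21 and Trem1, an amplifier of inflammation, by 0.54 ± 0.18. The Gimap GTPases, a lymphocyte-rich family listed after values had been seen, had 4 fallers of 6, beside 15.2% of all genes falling. Among them Gimap1 fell by 2.17 ± 0.20, from 7.92 and 7.85 to 5.94 and 5.49.

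In signalling downstream of chemoattractant receptors, Arrb1, a beta-arrestin that turns receptors off, went from 7.91 and 7.87 to 6.33 and 6.53. It fell by 1.46 ± 0.19 (adjusted p = 0.00012), with other probes from -0.94 to -0.07, while its relative Arrb2 changed by 0.09 ± 0.18. Of the G protein signalling genes 26.9% were called, beside 26% of all genes. Over 26 genes of G protein signalling 2 rose and 5 fell, with 1 to 4 risers and 2 to 7 fallers over the alternatives. Of 12 eicosanoid genes 2 rose and 3 fell, or 41.7% called beside 26% of all genes. The leukotriene B4 receptor Ltb4r1 rose by 1.59 ± 0.19, from 8.79 and 9.07 to 10.62 and 10.43, and Ptgs2 by 0.70 ± 0.20. Alox15 and Tbxas1 fell, with changes of -1.61 and -0.91, and Cysltr1, detected on neither tumor-bearing array, was at least 1.24-fold lower there. Over the alternatives 1 to 2 eicosanoid genes rose and 1 to 3 fell. Alox5 (-0.12 ± 0.19), which starts leukotriene synthesis, did not pass. Dusp6, the phosphatase that switches off ERK, fell by 1.31 ± 0.20, from 12.99 and 12.59 to 11.52 and 11.42, with other probes at -1.27 and -0.56. It was the only faller of 14 genes of MAP kinase feedback, where Dusp12 rose, and 0 to 3 rose and 0 to 2 fell over the alternatives. Of the MAP kinase feedback genes 14.3% were called, beside 26% of all genes. In TGF-beta signalling 3 of 17 tested genes fell and 1 rose, or 23.5% called beside 26% of all genes. The fallers were Smad3 (-1.13 ± 0.19), Tgif1 (-0.85 ± 0.19) and the ligand Tgfb1 (-0.70 ± 0.18). The single riser was Ltbp1, and its call depended on the processing and on single arrays. No gene of the list rose with no background correction, a normexp offset of 50, the authors' processed values or median scaling. None rose either with a looser or no detection filter, the dimmest probe of a gene, or a variance prior that follows the level.

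The actin system that drives migration had 2 risers and 5 fallers of 52, or 13.5% beside 26% of all genes. With no background correction 7 rose and 11 fell, with a variance prior that follows the level 8 and 9, and without tumor replicate 2 none rose and 2 fell. Evl, an actin filament elongator, fell by 1.27 ± 0.19, while its relative Vasp rose by 0.68 ± 0.21. Capg fell by 1.54 ± 0.21 on 1 probe and changed by 0.14 on another. Of 25 genes of granule docking and release 3 rose and 2 fell, or 20% beside 26% of all genes, and none rose without tumor replicate 1 or tumor replicate 2. Unc13d, which primes granules for fusion, went from 9.40 and 9.10 to 8.39 and 7.88, and fell by 1.11 ± 0.22 (adjusted p = 0.0026), and its other probe changed by -1.07. Rab27a, its partner on granules, changed by 0.23 ± 0.18. Rab5a, Rab35 and Rab10 rose, by 0.73, 0.61 and 0.61. In the early secretory pathway 2 of 29 rose and 2 fell, or 13.8% called beside 26% of all genes. Sec24b, a coat protein of vesicles leaving the endoplasmic reticulum, rose by 1.28 ± 0.19, from 8.27 and 8.12 to 9.41 and 9.56. Counts in this pathway ran from 1 to 4 risers and from 0 to 4 fallers over the alternatives.

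The change in tumor-bearing mice was set beside the change with G-CSF in the 6 cultured arrays, where neutrophils of control mice were kept for 2 h without or with G-CSF, each alone, with CCL2 or with CCL5 (20 ng/ml for the chemokines, 1 array a condition). Whether the human recombinant G-CSF went into the medium or into the donor mice is not settled by the labels, and fresh and cultured cells differ in handling. The changes share no array. With G-CSF 1618 genes rose (20.2%) and 1173 fell (14.6%), 34.8% of those tested. Of the genes that rose in tumor-bearing mice, 256 also rose with G-CSF, which is 29.5% of the tumor risers and 15.8% of the G-CSF risers. Of those that fell, 406 also fell with G-CSF (33.3% and 34.6%). In opposite directions were 101 genes that rose in tumor-bearing mice and fell with G-CSF (11.6% and 8.61%) and 168 that fell and rose (13.8% and 10.4%).

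The difference between the changes passed the test for 2092 genes (26.1%), with the tumor change above the G-CSF change for 787 (9.81%) and below it for 1305 (16.3%). Scaling to a common median moved the median G-CSF change of all genes from 0.06 to 0.42, and then 3150 genes passed, 493 of them with the tumor change above. Without control replicate 1 the difference passed for 1382 genes, and without tumor replicate 2 for 1285. Scimp, Acod1 and Egr2 stood above: Scimp changed by 3.18 in tumor-bearing mice and by -0.49 with G-CSF, a difference of 3.67 ± 0.25 (adjusted p = 1.7e-05). Acod1, which makes itaconate, changed by 2.79 and -0.26, and the immediate early factor Egr2 by 1.82 and -1.50. Cnnm2 differed by 4.09 ± 0.26 on 1 probe, while another of its probes changed by 0.46 in tumor-bearing mice. Prok2 rose in both, by 5.58 and 2.10, with a difference of 3.48 ± 0.25.

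Below the G-CSF change stood Cd40, a costimulatory receptor of B cells and myeloid cells, which changed by -2.20 in tumor-bearing mice and 0.73 with G-CSF. Fcgr2b, the inhibitory Fc receptor, changed by -1.99 and 0.56, and St6gal1 by -2.87 and -0.13. Bbc3 and Vti1a differed by -2.65 and -2.84, but other probes of both disagreed in tumor-bearing mice, at 0.06 and -0.15 for Bbc3 and from -0.57 to 0.82 for Vti1a. Prnp rose by 2.82 in tumor-bearing mice and 2.68 with G-CSF, a difference of 0.13 ± 0.25.

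Several gene groups held genes whose changes differed. Of 66 respiratory chain genes 39 rose and none fell with G-CSF, and 30 had a lower change in tumor-bearing mice in the test of the difference, beside 20.2% of all genes rising with G-CSF and 16.3% with a lower tumor change. Of 64 mitochondrial ribosome genes 27 rose and 3 fell with G-CSF, and 21 had a lower and 1 a higher tumor change. The cytosolic ribosome had 1 riser and 5 fallers with G-CSF, and 24 genes with a lower tumor change. Among protease inhibitors 8 rose with G-CSF, among them Stfa1 (1.51), Wfdc17 (1.80) and Wfdc18 (2.73). Reck changed by 0.01 with G-CSF, against 2.45 in tumor-bearing mice. In glycogen synthesis Pgm1 changed by 1.37 with G-CSF and Ppp1r3b by -1.94, against 1.51 and 0.75 in tumor-bearing mice. Of 36 transcription factors 14 fell and 1 rose with G-CSF, among them Cebpe (-1.33), Lmo2 (-1.20) and Lyl1 (-1.04), while Hif1a changed by 0.15 and Max by -0.84. Markers of other blood cells fell with G-CSF too (24 of 36, none rose, beside 14.6% of all genes falling), and their part in the shared falls was not tested.

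**Figure D5:**
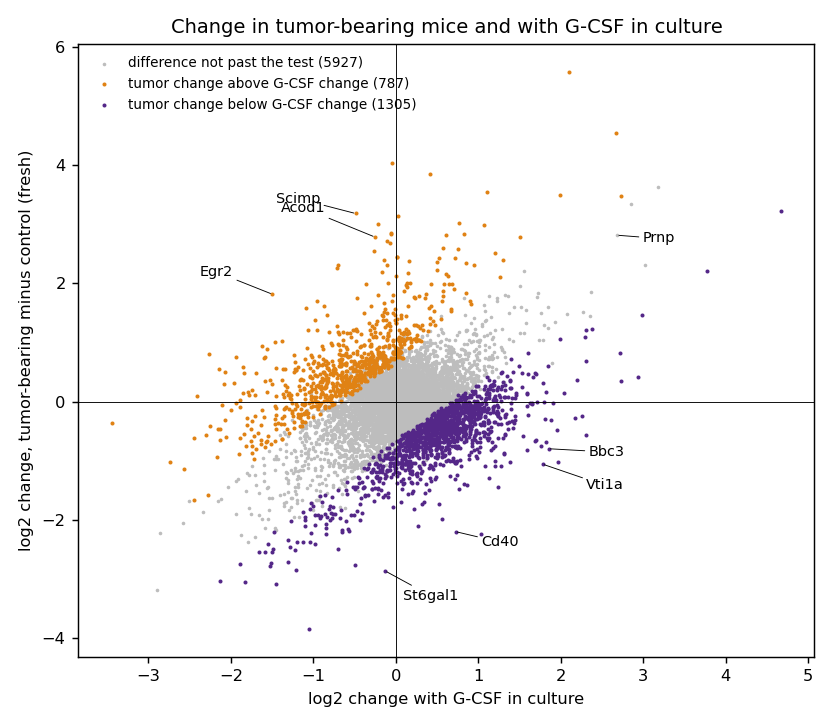
Log2 change in tumor-bearing mice (vertical axis, fresh arrays) against log2 change with G-CSF (horizontal axis, cultured arrays), 1 point a gene, coloured where the difference between the changes passed the test (787 above, 1305 below). Prnp lies near equal changes, Scimp, Acod1 and Egr2 lie upper left and Cd40, Bbc3 and Vti1a lower right.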

How the data were processed

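Total RNA of purified neutrophils was read on 10 bead arrays. Per the file headers, the deposited table gives for each probe an average signal intensity, a bead number with the standard error of the beads (other), and a detection p-value. The signals carry no background correction or normalization. The authors' processed log2 values are in a further table, checked to equal quantile-normalized log2 signals within 0.00531. Partek is named in the submitters' processing notes; the sources used here give neither its version nor its role.

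Signals were corrected with normexp in limma 3.58.1 under R 4.3.3 (nec, negative controls inferred from detection p-values, offset 16), taken to log2 and quantile normalized over the 10 arrays. Normexp widens changes of dim probes, and quantile normalization removes differences in overall brightness. Probes with a detection p-value below 0.05 on at least 2 fresh arrays were kept. A gene was read from the brightest probe that names no other gene, by the mean over 10 arrays, and probe names follow the platform annotation, which can be old. A gene detected on no array of a group is given as a bound ("at least"), each array of that group counting as at least its own lowest detected level.

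The fresh arrays were fitted alone (limma, empirical Bayes, two-sided, Benjamini-Hochberg over 8019 genes, 2 residual degrees of freedom). The contrast with G-CSF used all 10 arrays, with G-CSF, CCL2 and CCL5 as additive terms in culture (4 residual degrees of freedom). Named genes are ranks 11 to 20 in each direction, the 8 brightest risers and fallers, up to 3 risers and 3 fallers of each gene list by p, list members needed to describe a list, and the 5 genes with the smallest p in each direction of the G-CSF contrast. Members and lists were chosen with earlier results of these data known. The lists of mitochondrially encoded genes, DNA repair and Gimap GTPases were added after their values were seen. Alternatives changed the background correction, normalization, filter, probe choice, replicates, pairing, samples in the fit and variance prior.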

Additional observations from a re-analysis of the deposited data

How the results depend on the processing

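With 2 arrays a group, single arrays carry weight. Leaving out 1 fresh array at a time gave 1175 to 2133 called genes (481 to 890 rose, 694 to 1243 fell), the lowest without tumor replicate 2, and 1285 to 1566 genes with a difference from G-CSF; leaving out a cultured array gave 1660 to 1858. Scaling to a common median raised that difference to 3150 genes. The other alternatives gave 1504 to 2510 called genes. With the replicate number as a replicate block 2316 genes were called, including all 2086. Deviations of same-numbered arrays correlated at 0.0707 over detected probes. This single value cannot show whether same-numbered arrays share a day or batch, which the labels do not state.

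Of 177 named genes 88 kept direction and call under every alternative run. Taking the dimmest detected probe turned Tsc22d3 to 0.39, Capg to 0.14, Copg1 to -0.044, Stx3 to 0.0011, Srsf11 to -0.041, Phka2 to 0.0020, Rgs3 to -0.18 and Atp5a1 to -0.44. Among list medians larger than the spread between replicates, 5 changed sign: the respiratory chain (0.033) and RNA splicing (0.048) under median scaling, fatty acid oxidation and storage with no filter (-0.051), with the dimmest probe (-0.076) and when 1 array was left out (-0.030 to 0.062), TGF-beta and BMP signalling with the dimmest probe (0.042), and chromatin modifiers when 1 array was left out (-0.058 to 0.056). Another 12 lists, with medians within that spread, changed sign too, such as actin and migration (0.13 under median scaling). The cause was not tested. Dim genes near background are the least certain.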
